A study of Mus musculus with 9 samples.

Results

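Interferon-stimulated genes are switched on when a cell senses interferon, and their products make up much of the antiviral defence that cells outside the immune system carry. The 50 genes described here, taken by gene symbol, were the type I interferon receptor, transcription factors of the pathway, sensors of foreign nucleic acid and the induced effectors, among 19094 genes listed in at least 1 sample. RNA had been sequenced from 3T3-L1 cells, a clonal mouse line of fibroblast-like preadipocytes that turns into lipid-storing adipocytes under hormones, in 9 samples, 3 each at day 0, day 4 and day 8. The day 0 cells were near-confluent preadipocytes without the differentiation cocktail. The day 4 cells had received induction medium with dexamethasone, IBMX and insulin and then maintenance medium with insulin, and the day 8 cells had stayed longer in the insulin medium. All samples shared the same line and the same serum-containing base medium, and no culture kept without hormones was sampled at day 4 or day 8, so time in culture and hormones cannot be told apart. Cells were pooled at each stage and nothing states that the replicates were separate cultures, so the p-values measure only the spread between these samples, which may be technical.

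Each sample held between 18216114 and 20452144 expected counts, the estimated read counts per gene from RSEM, and day 0 replicate 2 was the shallowest. Levels are given as FPKM, which is scaled to gene length and depth and therefore allows genes to be set side by side. Changes were tested on the counts with edgeR's quasi-likelihood test over 13154 genes that passed a filter on low counts, and a gene counted as up- or downregulated if its adjusted p was below 0.05 and its level changed by more than 2-fold. Day 4 against day 0 is called the early phase, day 8 against day 4 the late phase and day 8 against day 0 the whole process. The early phase and the whole process share the day 0 samples, and the early and late phases share the day 4 samples. Of the 50 genes, 48 passed the filter, while Ifitm1 and Oasl1 were too low to be tested.

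The label of the samples was checked against cell markers. The 10 adipocyte markers summed to 140.1 ± 3.09 FPKM at day 0 (SD, n = 3), 7377 ± 1330 at day 4 and 9598 ± 450.9 at day 8, and all 10 were upregulated in the early phase. Fabp4 was the most abundant over all samples, but most of the day 0 sum came from Lpl, at 117.1 FPKM, with Fabp4 at 9.52. The extraction text of the labels names dorsal root ganglia, and 8 sensory neuron markers summed to 3.05 ± 0.135 FPKM at day 0, 1.77 ± 0.115 at day 4 and 2.03 ± 0.102 at day 8. Of the 2 that could be tested, Avil was downregulated in the early phase and averaged 2.32, 0.513 and 0.483 FPKM at days 0, 4 and 8, while Snap25 was upregulated and averaged 0.027, 1.12 and 1.10 FPKM. The macrophage markers Ptprc, Adgre1 and Itgam did not exceed 0.04 FPKM in any sample, and the summed level of 10 macrophage markers, of which Cd14 was the most abundant, was 9.62 ± 0.892 FPKM at day 0, 6.02 ± 0.546 at day 4 and 6.09 ± 0.531 at day 8. Of 5 macrophage markers that could be tested, Lyz2 and Aif1 were downregulated in the early phase, and Lyz2 was upregulated in the late phase, at 1.25 ± 0.36 on the log2 scale (edgeR adjusted p = 0.0093). The plasmacytoid dendritic cell list summed to 375.8 ± 56.9 FPKM at day 0 and 74.9 ± 2.74 at day 4, mostly from Bst2, which is also one of the interferon-stimulated genes and averaged 345.9 and 51.1 FPKM, and from Tcf4, at 29.4 and 23.65 FPKM, while its defining marker Siglech stayed at or below 0.08 FPKM. The 5 endothelial markers summed to 0.47 ± 0.0872 FPKM at day 0, 0.287 ± 0.0907 at day 4 and 0.403 ± 0.0569 at day 8, and Pecam1, the only one tested, was upregulated in the late phase, at 1.01 ± 0.35 (edgeR adjusted p = 0.027). The 8 fibroblast and preadipocyte markers summed to 5439 ± 126.6 FPKM at day 0, 3888 ± 167.0 at day 4 and 4512 ± 74.9 at day 8. Vim was the most abundant over all samples, but at day 8 Col1a1 averaged 2270 FPKM and Vim 1425. In the early phase Dlk1 and Ly6a were downregulated and the other 6 were not called. By the adjusted p alone, 7 were lower early and 1 was higher, namely Pdgfra at 0.84 ± 0.052. Dlk1 was upregulated in the late phase. The part of such shifts in the results was not tested.

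Type I interferons bind a receptor made of IFNAR1 and IFNAR2, whose kinases TYK2 and JAK1 phosphorylate the transcription factor STAT2. Together with IRF9 it forms part of the complex ISGF3, which binds the interferon-stimulated response element (ISRE) in target promoters, whereas interferon gamma acts mainly on the gamma-activated site (GAS). Many of the induced genes encode parts of the pathway itself, among them STAT2, IRF7 and IRF9, and fibroblasts are known to keep a basal level of them without infection.

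Promoter sequence was looked up to see how far these elements are shared by the group. RefSeq promoters of build GRCm38.p6, covering 250 bases before and 50 after each start site, were found for 40 of the 50 genes. The ISRE core was searched on both strands as GAAANNGAAA, and the GAS as TTCNNNGAA, where N is any base. The ISRE core was present in 21 of the 40 genes (52.5%) and in 3.99% of all 27025 genes with such a promoter. It was found in 20 of 32 genes that were downregulated in the early phase (62.5%) and in 1 of 6 that were tested and not called (16.7%), the exception being Ifitm2. The GAS was present in 14 of the 40 genes (35.0%) against 9.55% of all genes, in 10 of the 32 downregulated genes (31.2%) and in 4 of the 6 not called (66.7%), and in 2 of the 40 genes a GAS match shared bases with an ISRE match. A match describes letters in this window and not a bound site, and the share of matches was not used in any test. The promoters of the 4 genes with the largest early fall and the 2 genes with the smallest early change are shown in lower case, 5′ to 3′ on the strand of the gene, with the ISRE core in capitals.
Tgtp1 (chr11:48992197-48992496, minus strand): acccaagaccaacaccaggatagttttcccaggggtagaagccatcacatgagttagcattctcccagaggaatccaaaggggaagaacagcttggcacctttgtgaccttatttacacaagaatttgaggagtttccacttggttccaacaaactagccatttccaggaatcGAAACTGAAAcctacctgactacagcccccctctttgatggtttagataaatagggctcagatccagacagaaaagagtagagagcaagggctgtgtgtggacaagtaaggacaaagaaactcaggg
Ifi44 (chr3:151749861-151750160, minus strand): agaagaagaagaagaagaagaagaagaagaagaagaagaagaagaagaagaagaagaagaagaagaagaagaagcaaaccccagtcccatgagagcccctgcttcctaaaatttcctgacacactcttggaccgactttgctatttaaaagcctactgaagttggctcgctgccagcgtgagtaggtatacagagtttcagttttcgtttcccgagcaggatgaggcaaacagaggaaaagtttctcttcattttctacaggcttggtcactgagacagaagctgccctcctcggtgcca
Ifit3 (chr19:34583279-34583578, plus strand): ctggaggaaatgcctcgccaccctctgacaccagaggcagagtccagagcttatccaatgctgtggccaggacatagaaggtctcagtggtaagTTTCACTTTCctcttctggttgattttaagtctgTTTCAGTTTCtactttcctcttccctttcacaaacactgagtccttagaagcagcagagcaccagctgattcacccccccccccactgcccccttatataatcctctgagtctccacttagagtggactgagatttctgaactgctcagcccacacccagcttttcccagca
Ifit1 (chr19:34640639-34640938, plus strand): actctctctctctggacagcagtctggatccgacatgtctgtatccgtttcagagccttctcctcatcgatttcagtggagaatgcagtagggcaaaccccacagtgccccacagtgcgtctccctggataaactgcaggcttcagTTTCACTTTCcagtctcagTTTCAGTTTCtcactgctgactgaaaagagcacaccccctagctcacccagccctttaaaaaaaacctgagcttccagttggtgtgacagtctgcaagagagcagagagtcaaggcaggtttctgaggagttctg
Ifnar1 (chr16:91484965-91485264, plus strand): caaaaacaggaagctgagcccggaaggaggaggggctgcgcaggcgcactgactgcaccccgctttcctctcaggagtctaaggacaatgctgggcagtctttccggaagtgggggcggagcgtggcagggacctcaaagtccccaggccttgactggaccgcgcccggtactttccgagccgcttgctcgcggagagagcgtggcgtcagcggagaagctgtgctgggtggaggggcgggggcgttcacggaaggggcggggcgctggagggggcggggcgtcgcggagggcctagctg
Ifnar2 (chr16:91372533-91372832, plus strand): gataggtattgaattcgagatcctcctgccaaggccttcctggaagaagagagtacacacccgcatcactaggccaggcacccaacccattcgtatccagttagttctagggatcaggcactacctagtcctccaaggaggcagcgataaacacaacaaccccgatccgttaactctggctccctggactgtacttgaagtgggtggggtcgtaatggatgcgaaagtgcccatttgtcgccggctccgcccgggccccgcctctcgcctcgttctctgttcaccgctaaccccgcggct
With the start base counted as 0, the match in Tgtp1 began at -77, those in Ifit3 at -156 and -122, and those in Ifit1 at -104 and -85. Neither receptor gene held the ISRE core in this window, nor did Ifi44, whose fall was the second largest of the group.

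In the early phase, 42 of the 48 tested genes were downregulated and 0 were upregulated. Over all 13154 genes, 7.98% were downregulated and 9.77% upregulated. The median log2 fold change of the group was -2.48, with a range from -5.93 to 0.55, while that of all genes was 0.02. Large falls held many members of the group, since 32 of the 328 genes with a log2 fold change below -2, 18 of the 110 below -3 and 9 of the 38 below -4 belonged to it. At an unadjusted p under 0.05 without a fold threshold, 2 genes of the group were higher at day 4, and DESeq2, edgeR's exact test and limma likewise called 0 upregulated. The summed level of all 50 genes went from 3724 ± 309.5 FPKM at day 0 to 1657 ± 22.8 at day 4 and 1474 ± 24.3 at day 8. In bulk RNA, fewer expressing cells and less RNA per cell cannot be told apart.

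**Figure D1:**
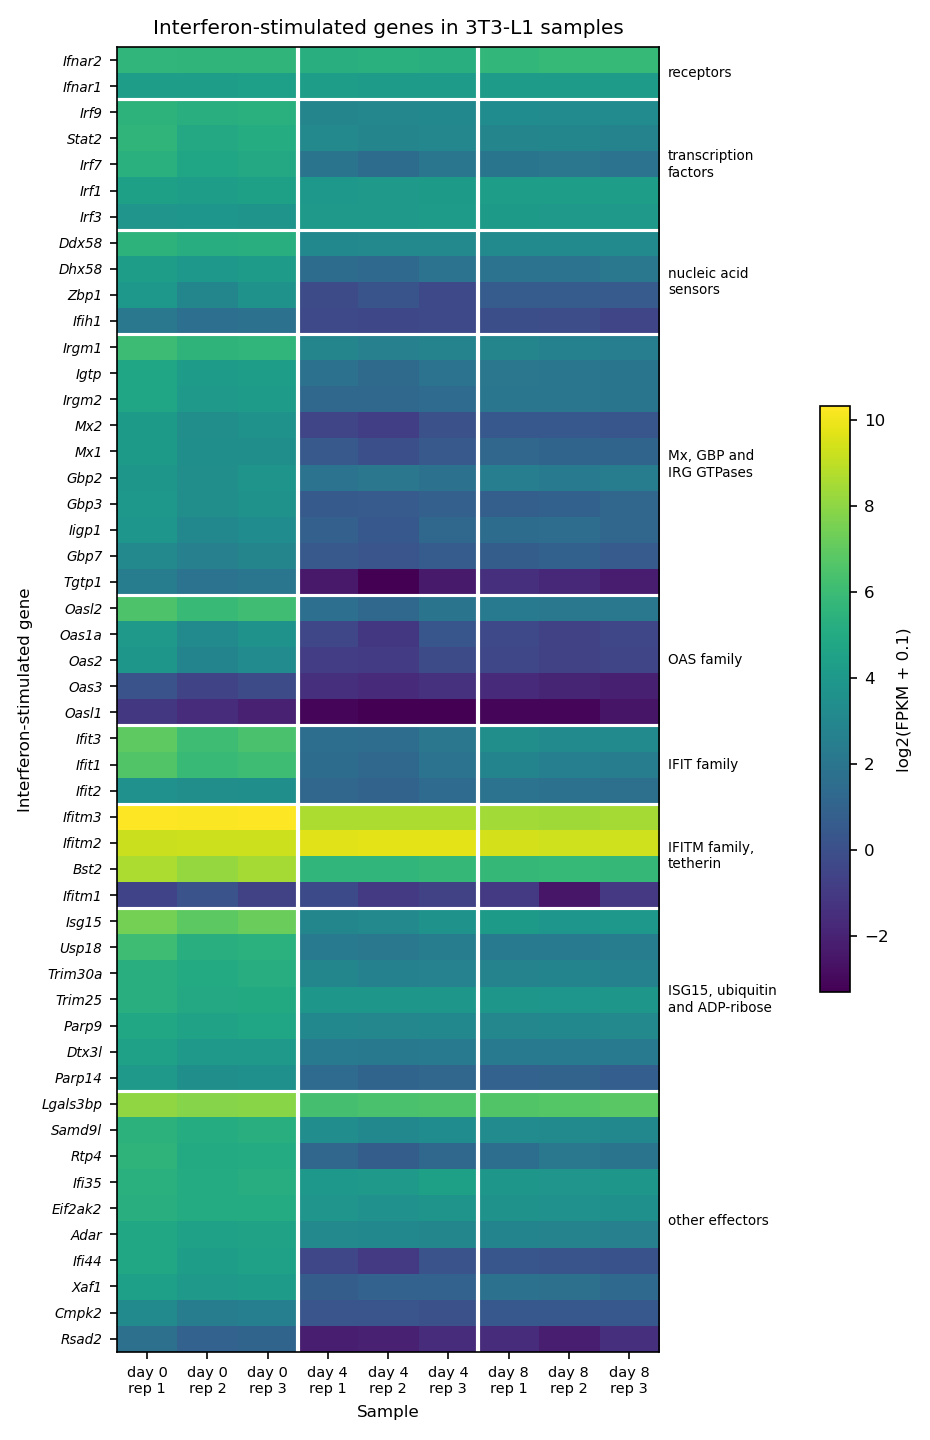
Level of the 50 interferon-stimulated genes (rows, grouped by role) in the 9 samples (columns), as log2(FPKM + 0.1) on the color scale. The day 0 columns are brighter than the day 4 and day 8 columns in most rows, while Ifnar1, Ifnar2, Irf1, Irf3 and Ifitm2 keep a similar color throughout.

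**Figure D2:**
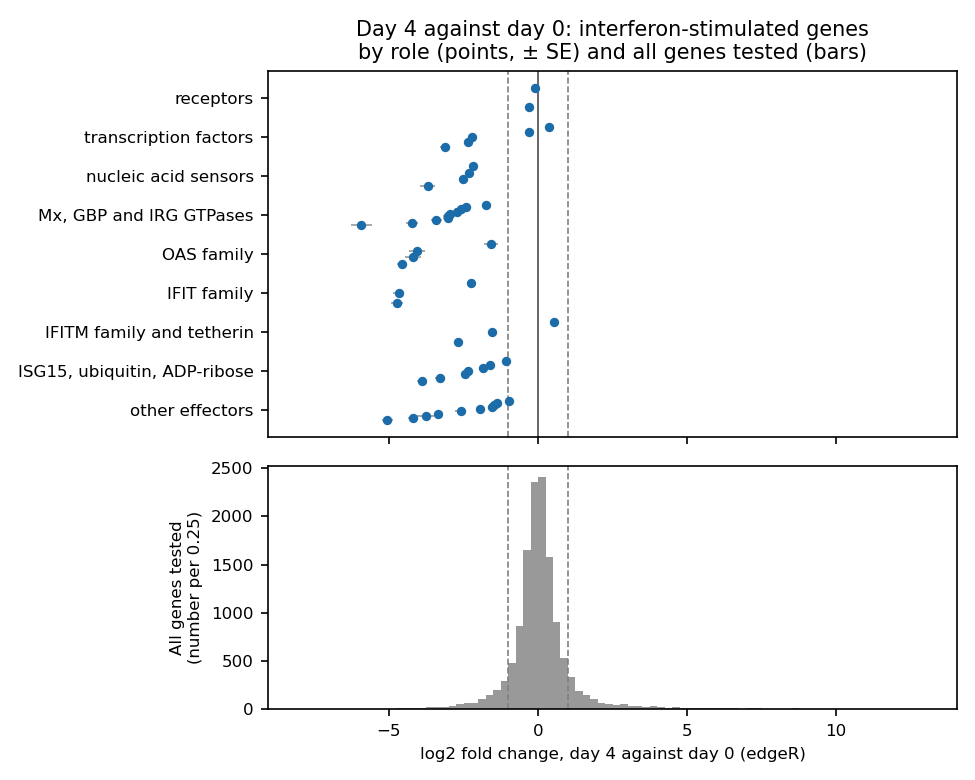
Log2 fold change of day 4 against day 0 for the 48 tested genes by role (upper panel, points with SE from edgeR) and the number of all 13154 tested genes per bin of 0.25 (lower panel). Dashed lines mark a 2-fold change, and 42 of the 48 points lie to the left of the lower threshold.

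The receptor genes were an exception. Ifnar1 (NCBI gene ID 15975), the signalling chain to which TYK2 docks, stood at 20.2, 19.9 and 20.5 FPKM in the day 0 replicates, 18.9, 17.6 and 17.7 at day 4 and 17.8, 17.5 and 17.6 at day 8. All samples lay within a narrow range, slightly higher at day 0 than later, and its early log2 fold change on the count scale was -0.09 ± 0.045 (SE, edgeR adjusted p = 0.073). Ifnar2 (15976), the high-affinity chain, stood at 50.1, 48.5 and 48.9 FPKM at day 0, 39.5, 39.8 and 37.8 at day 4 and 51.8, 57.1 and 56.6 at day 8. The day 4 samples were the lowest and the day 8 samples the highest, without overlap between days. Its changes were small, at -0.29 ± 0.058 in the early phase (edgeR adjusted p = 0.00029) and, late, 0.44 ± 0.058 (edgeR adjusted p = 1.2e-05), neither past 2-fold.

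Among 5 transcription factors, 3 were downregulated in the early phase, namely the inducible Irf7, Irf9 and Stat2. Irf7 (54123), which drives the expression of interferon genes after induction, measured 39.8, 25.8 and 30.02 FPKM at day 0, 3.75, 2.71 and 4.05 at day 4 and 3.87, 4.15 and 3.63 at day 8. Every day 0 sample lay far above every later sample, and days 4 and 8 overlapped. Its early log2 fold change was -3.14 ± 0.15 (edgeR adjusted p = 2.6e-11), an 8.80-fold fall.

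Irf9 (16391), the DNA-binding part of ISGF3, measured 45.2, 38.2 and 40.8 FPKM at day 0, 7.26, 7.75 and 8.02 at day 4 and 9.96, 9.54 and 9.62 at day 8. The 3 days did not overlap, with day 0 highest and day 8 a little above day 4. Its early change was -2.34 ± 0.070 on the log2 scale (edgeR adjusted p = 5.9e-14) and its late change 0.37 ± 0.076 (edgeR adjusted p = 0.00094), the latter under 2-fold. Stat2 (20847), its partner, measured 49.0, 30.2 and 34.5 FPKM at day 0, 8.36, 7.32 and 7.77 at day 4 and 7.31, 7.47 and 6.76 at day 8. Day 0 replicate 1 was well above the other two, and all of day 0 was above both later days, which overlapped. Its early change was -2.21 ± 0.13 (edgeR adjusted p = 3.2e-10).

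Irf1 and Irf3 did not pass the call, and their values, chosen after they were seen, were close across days. Irf1 (16362), a factor induced mainly by interferon gamma, averaged 21.1 ± 1.04, 16.4 ± 0.971 and 19.8 ± 0.429 FPKM (SD, n = 3) at days 0, 4 and 8, an early log2 fold change of -0.30 ± 0.061. Irf3 (54131), which is present before any stimulus and is activated by phosphorylation, averaged 13.98 ± 0.565, 17.1 ± 0.910 and 16.8 ± 0.462 FPKM, an early change of 0.36 ± 0.060. Both differed in the early phase by edgeR's adjusted p (0.00033 and 6.3e-05) but by less than 2-fold.

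**Figure D3:**
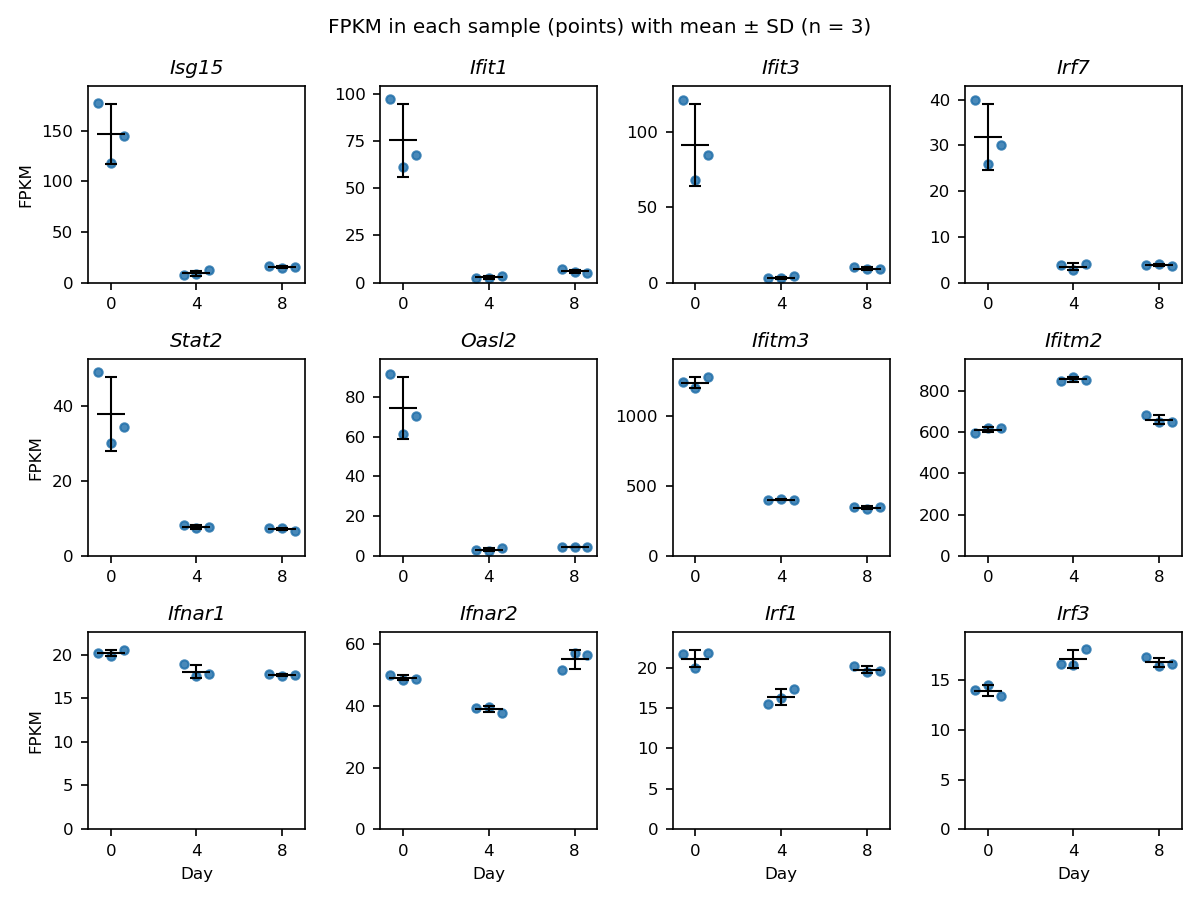
FPKM of 12 genes in each sample (points, from left to right replicates 1 to 3) at days 0, 4 and 8, with mean ± SD as bars and a vertical axis from 0 in every panel. Isg15, Ifit1, Ifit3, Irf7, Stat2, Oasl2 and Ifitm3 are lower at days 4 and 8 than at day 0, and Ifitm2, Ifnar1, Ifnar2, Irf1 and Irf3 remain within 2-fold of day 0.

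All 4 sensors of nucleic acid were downregulated in the early phase, with a median log2 fold change of -2.41. Zbp1 (58203), which binds left-handed Z-form nucleic acid, measured 15.3, 7.46 and 12.8 FPKM at day 0, 0.79, 1.05 and 0.71 at day 4 and 1.46, 1.46 and 1.43 at day 8. The day 0 replicates were spread out, yet each was several times above any later sample. Zbp1 changed by -3.71 ± 0.25 (edgeR adjusted p = 1.5e-09). Dhx58 (80861), which encodes the RIG-I-like receptor LGP2, measured 19.3, 15.1 and 17.8 FPKM at day 0, 2.73, 2.44 and 3.51 at day 4 and 3.51, 3.58 and 4.28 at day 8. Day 0 was apart from both later days, which touched at 3.51. The early change of Dhx58 was -2.52 ± 0.12 (edgeR adjusted p = 2.4e-11). Ddx58, the gene of RIG-I, and Ifih1, the gene of MDA5, which sense viral double-stranded RNA in the cytosol, had early changes of -2.17 ± 0.068 and -2.30 ± 0.15.

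The 10 GTPase genes were all downregulated in the early phase, with a median of -2.99. They encode the dynamin-like Mx proteins, which block viral replication, the guanylate-binding proteins and the immunity-related GTPases, which attack the vacuoles of intracellular microbes. Tgtp1 (21822), an immunity-related GTPase, measured 5.19, 3.58 and 4.0 FPKM at day 0, 0.09, 0 and 0.10 at day 4 and 0.27, 0.20 and 0.11 at day 8. It was near the lower end of detection at day 4, where its counts were 5.3, 0 and 5.8. The early change of -5.93 ± 0.35 (edgeR adjusted p = 2.6e-10) was the largest of the group, and 81.2% of the 50-base stretches of its transcripts also occur in other genes, mainly its copy Tgtp2, so the split of reads between the copies is uncertain. Mx2 (17858) measured 17.2, 10.7 and 12.5 FPKM at day 0, 0.63, 0.47 and 0.95 at day 4 and 1.24, 1.27 and 1.14 at day 8. Day 0 lay far above both later days, and day 8 lay above day 4 without overlap. The early log2 fold change of Mx2 was -4.23 ± 0.21 (edgeR adjusted p = 2.9e-11). The other members ranged from -1.74 ± 0.12 for Gbp2 to -3.41 ± 0.18 for Mx1, with Irgm2 at -3.03, Gbp3 at -3.03, Irgm1 at -2.94, Igtp at -2.71, Iigp1 at -2.58 and Gbp7 at -2.43.

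The OAS family, enzymes and enzyme-like proteins of the 2′-5′ oligoadenylate system, which senses double-stranded RNA, held 4 tested genes, all of them downregulated. Oasl2 (23962) measured 91.7, 61.4 and 70.3 FPKM at day 0, 3.02, 2.24 and 3.71 at day 4 and 4.60, 4.32 and 4.31 at day 8. The drop was more than an order of magnitude in every sample, and day 8 lay just above day 4 without overlap. The early change was -4.58 ± 0.15 (edgeR adjusted p = 2.3e-13). Oas2 (246728) measured 14.8, 7.04 and 9.57 FPKM at day 0, 0.46, 0.41 and 0.77 at day 4 and 0.66, 0.53 and 0.63 at day 8. Day 0 replicate 1 was well above replicate 2, but neither was near the later days, which overlapped. Oas2 changed by -4.20 ± 0.27 (edgeR adjusted p = 6.7e-10). Oas1a changed by -4.05 ± 0.27, with 57.6% of its stretches shared with Oas1g and Oas1b, and Oas3, which measured 1.04, 0.59 and 0.80 FPKM at day 0, by -1.59 ± 0.24. Oasl1 was listed at 0.37, 0.23 and 0.14 FPKM at day 0, and was not tested.

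All 3 IFIT genes, whose products bind foreign RNA and block its translation, were downregulated, with a median of -4.67. Ifit3 (15959) measured 121, 68.0 and 84.9 FPKM at day 0, 2.94, 2.87 and 4.15 at day 4 and 10.4, 8.79 and 8.78 at day 8. The days were fully apart, with day 8 between day 4 and day 0. Its early change was -4.72 ± 0.20 (edgeR adjusted p = 3.7e-12), and 51.2% of its stretches are shared with its copy Ifit3b. Ifit1 (15957) measured 97.2, 61.0 and 67.5 FPKM at day 0, 2.71, 2.21 and 3.55 at day 4 and 7.02, 5.79 and 5.16 at day 8. It showed the same order of days, with no overlap. The early change of Ifit1 was -4.67 ± 0.18 (edgeR adjusted p = 1.6e-12), and that of Ifit2 -2.24 ± 0.094.

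The IFITM genes encode proteins that hinder the fusion of viruses with cell membranes. Ifitm3 and Ifitm2 had the highest FPKM of the group at day 0 and did not move together. Ifitm3 (66141) measured 1239.6, 1199 and 1277 FPKM at day 0, 398, 404 and 402 at day 4 and 347, 332 and 351 at day 8. The replicates were tight, and the level stepped down at each stage without overlap. Ifitm3 changed early by -1.56 ± 0.047 (edgeR adjusted p = 6.1e-14). Ifitm2 (80876), its neighbour in the family, whose values were chosen after they were seen, measured 598, 621 and 619 FPKM at day 0, 848, 869 and 854 at day 4 and 686, 652 and 648 at day 8. Day 4 was the highest stage, and each stage was apart from the others. The early change was 0.55 ± 0.043 (edgeR adjusted p = 8.6e-09), under 2-fold, and 48.5% of its stretches also occur in other transcripts. Ifitm1 was at or below 1.01 FPKM in every sample. Bst2 (69550), the gene of tetherin, which holds budding virus at the cell surface, measured 397, 285 and 356 FPKM at day 0, 50.3, 49.7 and 53.4 at day 4 and 55.2, 55.4 and 53.6 at day 8. It fell in all later samples to nearly the same level. For Bst2 the early change was -2.69 ± 0.094 (edgeR adjusted p = 4.1e-13).

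The 7 genes of the ISG15, ubiquitin and ADP-ribose group were all downregulated, with a median of -2.34. Isg15 (100038882), a ubiquitin-like protein that is attached to newly made proteins during the response, measured 177, 119 and 145 FPKM at day 0, 7.54, 8.55 and 12.2 at day 4 and 16.9, 14.2 and 15.4 at day 8. Day 0 was by far the highest stage, and day 8 was above day 4 without overlap. The early change was -3.90 ± 0.16 (edgeR adjusted p = 2.2e-12). Usp18 (24110), which removes ISG15 and also restrains the receptor, measured 66.5, 39.2 and 41.9 FPKM at day 0, 4.79, 4.32 and 5.31 at day 4 and 5.02, 4.98 and 5.42 at day 8. Days 4 and 8 overlapped, far below day 0. For Usp18 it was -3.29 ± 0.17 (edgeR adjusted p = 6.9e-11). The partners Parp9 and Dtx3l, an ADP-ribosyltransferase and a ubiquitin ligase that act as a pair, changed by -1.63 ± 0.076 and -1.84 ± 0.11, Parp14 by -2.45 ± 0.14, and the ubiquitin ligase genes Trim30a and Trim25 by -2.34 ± 0.079 and -1.09 ± 0.075. Of these 7 genes, Trim25 lay nearest to the 2-fold threshold and was no longer called without day 0 replicate 1.

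Of 10 other effectors, 9 were downregulated in the early phase. Ifi44 (99899) measured 28.2, 20.1 and 22.3 FPKM at day 0, 0.64, 0.39 and 1.01 at day 4 and 1.17, 1.07 and 0.98 at day 8. The later days overlapped and stayed at or below 1.17 FPKM. Its early change was -5.06 ± 0.18 (edgeR adjusted p = 6.7e-13). Rtp4 (67775), a chaperone of membrane receptors, measured 46.8, 32.3 and 33.4 FPKM at day 0, 2.19, 1.51 and 2.21 at day 4 and 2.99, 4.28 and 3.67 at day 8. The stages did not overlap, with day 8 above day 4. Rtp4 changed by -4.19 ± 0.17 (edgeR adjusted p = 3.2e-12). Rsad2, the gene of viperin, changed by -3.77 ± 0.29, the apoptosis-related Xaf1 by -3.37 ± 0.12, the nucleotide kinase Cmpk2 by -2.60 ± 0.18, Samd9l by -1.96 ± 0.084, the RNA editing enzyme Adar by -1.53 ± 0.083, the secreted Lgals3bp by -1.47 ± 0.076 and Eif2ak2, the gene of the RNA-activated kinase PKR, by -1.39 ± 0.068. Ifi35 (70110), the exception, averaged 36.6 ± 3.16, 17.8 ± 3.44 and 14.4 ± 0.725 FPKM (SD, n = 3) at days 0, 4 and 8, and its early change of -0.98 ± 0.10 fell just short of 2-fold. It was called downregulated early with library size alone, upper-quartile factors and limma, and without day 0 replicate 2 or day 4 replicate 3.

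In the late phase, 3 of the 48 genes were upregulated and 0 were downregulated, against 4.24% and 2.81% of all tested genes. The median change of the group was 0.30, and that of all genes -0.01. The 3 genes were Tgtp1 at 1.60 ± 0.62 (edgeR adjusted p = 0.046), Ifit3 at 1.54 ± 0.23 (edgeR adjusted p = 5.4e-05) and Ifit1 at 1.13 ± 0.22 (edgeR adjusted p = 0.00054) on the log2 scale. With the adjusted p alone and no fold threshold, 18 genes were higher and 3 lower at day 8 than at day 4, where 22.5% and 22.7% of all genes were higher and lower. The 3 lower genes were Ifitm2 at -0.33, Adar at -0.24 and Ifitm3 at -0.18. Xaf1, Rtp4, Mx1, Mx2, Irgm2 and Isg15 were among the higher ones, with changes of 0.84, 0.93, 0.86, 0.87, 0.78 and 0.76. At an unadjusted p under 0.05, 4 genes were lower, and DESeq2, edgeR's exact test and limma called 0 downregulated.

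Leaving out single libraries changed the late calls. Without day 4 replicate 3, 6 genes were upregulated, adding Ifi44, Mx2 and Rtp4. Rtp4 was also called without day 4 replicate 1 and without day 8 replicate 1. Tgtp1 was no longer called without any 1 of day 0 replicate 3, day 4 replicates 1 and 2 and day 8 replicates 1 and 2. With limma on log2(FPKM + 1) only Ifit3 was called, and with edgeR's test against a 2-fold change 0 were called and 1 passed an unadjusted p under 0.05.

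Over the whole process, 43 of the 48 genes were downregulated and 0 upregulated, against 7.7% and 10.3% of all tested genes, and the median log2 fold change was -2.27 where that of all genes was -0.02. The 43 were the 42 genes of the early phase and Ifi35, at -1.24 ± 0.10 (edgeR adjusted p = 2.3e-08). The remaining 5 genes were Ifnar1, Ifnar2, Irf1, Irf3 and Ifitm2, with changes of -0.08, 0.15, 0.01, 0.37 and 0.22. At an unadjusted p under 0.05, 3 genes were higher at day 8, and DESeq2, edgeR's exact test and limma called 0 upregulated.

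The level left, the mean FPKM as a percentage of the day 0 mean, set the roles apart as a description. Its median over the 48 genes was 17.1% at day 4 and 19.2% at day 8. At day 8, 9 genes had less than 10% left, 24 had 10 to 25%, 10 had 25 to 50% and 5 had over 50%, where day 4 counted 15, 18, 10 and 5 genes. The IFIT genes had the lowest median at day 4, with 3.75% left and 10.2% at day 8, and the OAS family the lowest at day 8, with 5.53% at day 4 and 5.86% at day 8. The GTPases had 12.1% and 17.3% left. The sensors stood at 18.1% and 21.7%, the ISG15 group at 18.8% and 18.5%, the other effectors at 20.2% and 20.8% and the transcription factors at 20.6% and 23.4%. The IFITM family with tetherin kept 32.4% and 27.7%, and the receptors 84.5% and 99.9%. Within the roles the spread was wide. Among the effectors, for example, Ifi44 had 4.56 ± 0.404% left at day 8 and Lgals3bp 43.6 ± 3.14%, and among the GTPases Tgtp1 had 4.54 ± 1.88% and Gbp2 41.3 ± 2.49% (SD of the day 8 replicates, n = 3). No test between roles was run.

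**Figure D4:**
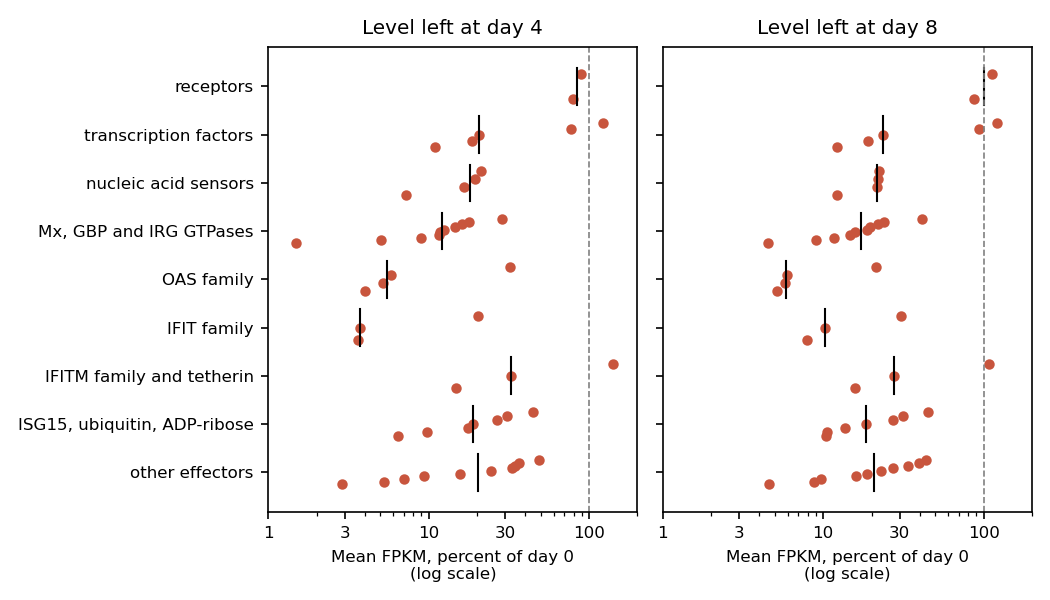
Mean FPKM at day 4 (left) and day 8 (right) as a percentage of the day 0 mean, on a log axis, for the 48 tested genes by role; black bars mark the median of a role and the dashed line marks 100%. The OAS family lies furthest to the left at day 8, with a median of 5.86%, and the receptors lie around 100%.

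The day 0 replicates differed from each other along these genes. Replicate 1 was the highest of the 3 for 43 of the 48 genes and replicate 2 the lowest for 45. Over all tested genes without a 0 at day 0, replicate 1 was the highest for 31.3% and replicate 2 the lowest for 4262 of 12970. The median ratio of replicate 1 to replicate 2 was 1.40 for the group and 0.987 for all genes. The coefficient of variation (SD over mean) at day 0 had a median of 18.5% for the group and 5.76% for all genes, at day 4 of 11.6% and 6.83%, and at day 8 of 5.61% and 5.08%. Replicate 3 was the highest at day 4 for 31 of 47 genes without a 0, and for 40.25% of all tested genes without a 0. The spread at day 0 was small beside the step to day 4, since the group's median level in the day 0 samples was 120.4%, 84.95% and 95.4% of the day 0 mean, and in the day 4 samples 17.25%, 15.3% and 18.6%. What set the day 0 replicates apart was not tested.

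**Figure D5:**
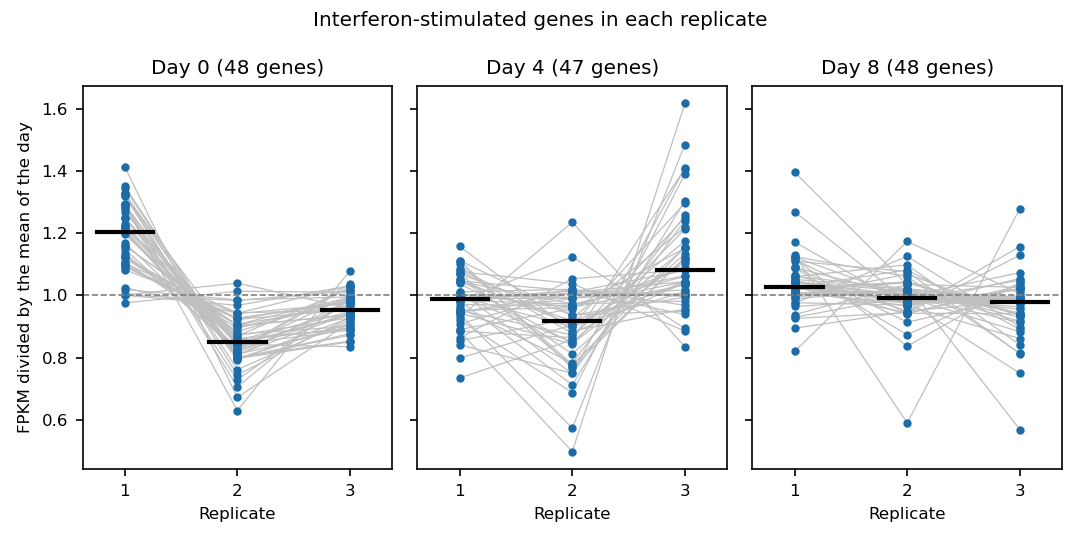
FPKM of each interferon-stimulated gene divided by its mean of the day (vertical axis) in the 3 replicates of day 0, day 4 and day 8, with a gray line per gene and a black bar at the median. At day 0 the median is 1.20 in replicate 1, 0.850 in replicate 2 and 0.954 in replicate 3, and at day 8 the medians lie close to 1.

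Upstream of these genes, few interferon transcripts were counted. Of 21 interferon genes looked for, 7 were listed in any sample, and their counts summed to between 0 and 18.4 per sample, most of them from Ifnz, 76.9% of whose stretches are shared with other genes. Without Ifnz the sums were 4, 1 and 4 at day 0, 0, 1 and 1 at day 4, and 0 in each sample of day 8, where a floor of 3 counts corresponds to 0.149 to 0.151 CPM (counts scaled to the library total). Ifnb1 did not exceed 0.07 FPKM. Ifnz was the only one that passed the filter and was not called in any phase.

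Of the kinases docked to the receptor, neither was called in the early or the late phase. Jak1 changed by -0.78 ± 0.051 in the early phase and by 0.48 ± 0.052 in the late phase, and Tyk2 by -0.24 ± 0.060 and -0.52 ± 0.064, all under 2-fold. Of the receptor of interferon gamma, Ifngr1, the ligand-binding chain, averaged 17.0 ± 0.598, 58.0 ± 6.07 and 37.7 ± 3.00 FPKM (SD, n = 3) at days 0, 4 and 8. It was upregulated in the early phase at 1.84 ± 0.077 (edgeR adjusted p = 3.7e-12), while Ifngr2, the second chain, changed by -0.05 ± 0.049.

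Among the other IRF genes, Irf5 was downregulated early, at -2.41 ± 0.25. Among 10 feedback inhibitors, the phosphatase gene Ptpn6 was upregulated early at 1.31 ± 0.14 and the nuclease gene Trex1 downregulated at -1.04 ± 0.070, with 95.8% of its stretches shared with Atrip, while Socs3 was downregulated late at -1.01 ± 0.14. Genes of other sensors and adaptors that were downregulated early included Zc3hav1, whose product binds viral RNA, at -1.66 ± 0.062, the endosomal receptor Tlr3 at -1.56 ± 0.096, and Sting1, the adaptor of cytosolic DNA sensing, at -1.14 ± 0.065.

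A longer list of 71 further interferon-induced genes, of which 63 were tested, held 36 downregulated and 5 upregulated genes in the early phase, against 7.98% and 9.77% of all tested genes, with a median change of -1.31. The largest falls were those of Ifit3b at -4.49, Apol9b at -4.48, Ifi47 at -4.39, Tgtp2 at -4.36 and Oas1g at -4.09, and of these Apol9b, Tgtp2, Oas1g and Ifit3b share 45.0% or more of their stretches with copies. The 5 upregulated genes were Ifi207 at 3.80 ± 0.10, Ifi205 at 1.96 ± 0.15, Trim14 at 1.73 ± 0.33, Ifi204 at 1.19 ± 0.066 and Xdh at 1.07 ± 0.068, and Trim14 shares 33.9% of its stretches with other genes. Trim14 was also low at day 0, at 0.27 and 0.11 FPKM in replicates 1 and 2. Ifi204, Ifi205 and Ifi207 encode p200 proteins that bind DNA in the nucleus and cytosol. Of the same family, Ifi203 and Mndal were downregulated early, at -1.60 ± 0.087 and -1.12 ± 0.14. Ifi207 measured 7.36, 5.05 and 5.09 FPKM at day 0, 80.3, 73.5 and 79.6 at day 4 and 5.55, 6.17 and 5.94 at day 8. It was high at day 4 alone, and days 0 and 8 overlapped. In the late phase, 6 genes of the list were downregulated and 4 upregulated, against 2.81% and 4.24% of all tested genes. Downregulated were Ifi207 at -3.68 ± 0.10, Ifi205 at -2.96 ± 0.17 and Ifi204 at -2.23 ± 0.071, along with Xdh, Mndal and Slfn2, and upregulated were Gbp8, Ifit3b, Ifi47 and Phf11d. Over the whole process, 36 genes of this list were downregulated and 2 upregulated, against 7.7% and 10.3% of all tested genes, and the 2 were Ifi27 and Trim14, at 1.38 ± 0.089 and 1.94 ± 0.33.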

How the data were processed

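Per the study's methods, reads of low quality were filtered out by the authors, and the rest were mapped with HISAT/Bowtie2 and quantified with RSEM. The genome build is not given in the sources used here. The deposited expected counts are unnormalized RSEM estimates per gene, and the deposited FPKM are the authors' values per gene length and depth. Each file lists genes with an FPKM of at least 0.01, and a gene missing from a file was set to 0.

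Rounded expected counts were tested with edgeR 4.0.16 under R 4.3.3 (filterByExpr by day, TMM factors, glmQLFit and glmQLFTest, 1 model over 9 samples). P-values were adjusted by Benjamini-Hochberg over 13154 genes, the SE is the log2 fold change divided by the square root of F, and the common biological coefficient of variation was 0.0538. A floor of 3 counts equals 0.147 to 0.165 CPM. Such floors cover counting error only. Level left came from mean FPKM. The fits were tested on simulated data.

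The members and lists were chosen with earlier results of these data known. Per-sample values are given for the 2 members of each role with the largest early change at a mean FPKM of at least 1, for members called in the late phase and for Stat2. Of the other lists, called genes are named, at most 10 per list and comparison, along with Jak1, Tyk2 and the interferon genes, and a few genes of these lists are not reported here. Shared stretches of 50 bases come from GENCODE vM21 transcripts. Promoters come from a RefSeq table.

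The alternatives were RLE and upper-quartile factors, library size alone, no filter, at least 10 counts in every sample, DESeq2 1.42.0, edgeR's exact test and glmTreat, limma 3.58.1 on log2(FPKM + 1) and log2(FPKM + 0.1), a replicate block, the 6 samples of a comparison alone, the adjusted p without a fold change, TMM-scaled CPM for the level left, and leaving out each sample.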

Additional observations from a re-analysis of the deposited data

How the results depend on the processing

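Downregulated genes numbered 40 to 43 in the early phase and 40 to 44 over the whole process in the alternatives with a fold threshold, against 42 and 43, and leaving out 1 sample gave 41 to 43 and 42 to 43. In both comparisons Trim25 was lost without day 0 replicate 1 and with glmTreat, and Oasl1 was gained with no filter and with DESeq2. Early, Ifi35 was gained in 6 settings (library size alone, upper-quartile factors, both limma fits, without day 0 replicate 2 and without day 4 replicate 3). Gbp2 and Lgals3bp were lost over the whole process with glmTreat. Rsad2 and Tgtp1 were not tested when each sample needed 10 counts, and Oas3 was not tested with limma, which took genes with at least 1 FPKM in 3 samples. By the adjusted p alone, 2 genes were higher early, 3 were higher over the whole process, and late 18 were higher and 3 lower. The late phase had 3 upregulated genes, 1 with limma on log2(FPKM + 1), 0 with glmTreat and 2 to 6 when 1 sample was left out. The median level left was 15.96% to 19.24% at day 4 and 17.67% to 22.7% at day 8 when 1 sample was left out, and 20.74% at day 8 from TMM-scaled CPM. Library size alone moved the median of all genes by -0.11 over the whole process, where the group's median was then -2.38.

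Signs turned only for log2 changes that were not called. Late, library size alone and limma with pseudocounts of 1 and 0.1 gave -0.0321, -0.03 and -0.0314 for Ifnar1, -0.0276, -0.0229 and -0.0241 for Irf3, -0.009, -0.0083 and -0.0089 for Trim25, and -0.0289, -0.0215 and -0.0241 for Trim30a. Leaving out 1 sample, the late change ranged from -0.0033 to 0.0463 for Ifnar1, -0.0021 to 0.0591 for Irf3, -0.1233 to 0.0587 for Irgm1, -0.4135 to 0.3911 for Oas1a, -0.1018 to 0.029 for Samd9l and -0.0222 to 0.0997 for Trim30a. For Irf1 over the whole process, library size alone, upper-quartile factors and limma with 1 and 0.1 gave -0.0965, -0.0417, -0.0907 and -0.0946, and leaving out 1 sample -0.0295 to 0.0385. The causes were not tested. Of the other values for single genes, 951 early, 941 over the whole process and 870 late kept their direction and their side of an adjusted p of 0.05, whatever the fold change and leaving glmTreat aside, and 5, 10 and 64 crossed that adjusted p.

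The replicate block gave 42 downregulated genes early, 3 upregulated late and 43 downregulated over the whole process. Samples with the same number deviated together little across 13154 genes. Their mean r was 0.031 over 9 pairs, against -0.015 over 18 pairs with different numbers. With 3 replicates per day, this cannot settle whether the numbers pair the samples. The 3 replicates per day limit every p-value, and Tgtp1, Rsad2 and Oasl1 rest on few counts at days 4 and 8.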
